A study of Zea mays with 112 samples.

Results

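EREB108 (gene Zm00001d031499) and EREB150 (gene Zm00001d031501) are 2 maize transcription factors (TFs) whose gene identifiers differ by 2, and their binding sites are described here from 2 of the 17 peak lists of TFs with the EREB name, in a series that holds 95 further lists. The rule that picked out the pair uses names and identifiers and no measured value, but it was set with earlier results of these data known. Binding was measured by ampDAP-seq, in which a TF fused to a HaloTag is made in wheat germ extract, held on beads and mixed with amplified genomic DNA, so that neither chromatin nor DNA methylation is present. The DNA of every list came from leaves of the inbred line B73 at an age of 14 DAG, and the labels name no difference between the lists other than the TF used as bait, although the run identifiers differ. Since the DNA is naked, no marker in the data can check the labelled tissue. Each TF has 1 list and no replicate, read depth is unknown, and every interval given below is a 95% Wilson interval that covers counting error only.

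The name EREB stands for the ethylene-responsive element binding TFs, part of the plant AP2/ERF family. The AP2 domain of these proteins reads short GC-rich elements. The ERF branch is known for the GCC box, with the core GCCGCC, and the DREB branch for the dehydration-responsive element, with the core CCGAC. Related members often recognize overlapping sets of sites, so that a pair of genes with adjacent identifiers raises the question of how far their sites coincide. Besides EREB108 and EREB150, 15 other lists carry the EREB name (below, the other EREB lists), and 95 lists do not.

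A supplementary table of the study names a DNA word for each list. The words of EREB108, of the lists that shared most sites with either factor and of EREB209 are shown because these lists recur below. Only the longest stretch without ambiguous letters is printed, 5′ to 3′, with the GCC-box core in capitals where the stretch holds it (the letters GCCGCC or, on the other strand, GGCGGC).
EREB108: GCCGCCgg
EREB209: ccGCCGCCg
EREB147: ccccGCCGCCg
EREB200: cGCCGCCgtca
EREB2: GCCGCCgccctt
EREB102: ccgccgaca
EREB118: aatttcggcag
The longest plain stretch in the word of EREB150 is cgcag, 5 of its 11 letters. That of EREB196, also close to EREB108, is cgccg. The stretch of EREB102 holds CCGAC, the core of the dehydration-responsive element, and those of EREB118 and EREB150 hold neither core. These words describe the lists and were not searched for in the genome, which was not used here.

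The EREB108 list was the longer of the pair and held the higher deposited signal values. It held 122485 peaks with a median signal of 53.3 (range 18 to 2265), and 55.1% of them reached a −log10 q of 10. EREB150 held 67074 peaks with a median signal of 34.3 (range 19 to 448.8), and 8.40% reached that q. At rank 1000 the signals were 427.1 and 88.0, and at rank 5000 they were 287.1 and 62.1. No scaling between libraries is stated, so signal was used only to rank peaks within a list, and how far the gap reflects depth was not tested. The run identifiers also differ, beginning with 19255 for EREB108 and with 20255 for EREB150, so that the factor and this identifier cannot be told apart for the pair.

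The first comparison asked how many sites the factors have in common when only the strongest are counted. A site was called common when the other list had a summit within 100 bp among the same number of top peaks. Among the top 1000 peaks of each list, 95 were common (9.50%, 7.84 to 11.5%). Among the top 5000 peaks, 704 sites of EREB108 (14.1%, 13.1 to 15.1%) and 691 sites of EREB150 (13.8%, 12.9 to 14.8%) were common. Among the top 10000 peaks, the counts were 1699 (16.99%, 16.3 to 17.7%) and 1621 (16.2%, 15.5 to 16.95%). Over all peaks, 25804 sites of EREB108 (21.1%) and 22488 of EREB150 (33.5%) were common, which are shares of 122485 and 67074 peaks. The averages of both directions thus went from 9.50% through 13.95% and 16.6% to 27.3% as weaker peaks were admitted.

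For scale, the same count was made in the other lists. Of the top 5000 peaks of the other EREB lists, 13.9% had a top-5000 summit of EREB108 and 6.95% one of EREB150 within 100 bp. Of the top 5000 peaks of the lists without the EREB name, 0.118% had one of EREB108 and 1.45% one of EREB150. With all peaks on both sides, the shares in the other EREB lists were 33.2% and 11.2%, and those in the lists without the name were 1.31% and 1.91%. The sharing of the pair at the top 5000 therefore lay near the average EREB list for EREB108 and above it for EREB150. Of the 136 pairs of EREB lists, 56 shared more than EREB108 and EREB150 and 79 shared less.

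Many sites that were not common at a cutoff had a weak peak in the other list. At the top 5000, a further 1961 sites of EREB108 (39.2%) met an EREB150 summit only below the cutoff, at a median rank of 21567 in that list. Likewise 1768 sites of EREB150 (35.4%) met an EREB108 summit below the cutoff, at a median rank of 37408. The rest were private, with no summit of the other list within 100 bp at any strength: 2335 sites of EREB108 (46.7%, 45.3 to 48.1%) and 2541 sites of EREB150 (50.8%, 49.4 to 52.2%). At the top 1000 the private sites were 394 (39.4%) and 444 (44.4%), at the top 10000 they were 5218 (52.2%) and 5252 (52.5%), and over all peaks they were 96681 (78.9%) and 44586 (66.5%). Of the private sites of the top 5000, 44.2% in EREB108 and 34.2% in EREB150 still had a summit of the other list within 1 kb.

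Strong sites were found in the other list more often than weak ones, in both directions. Of EREB108 sites at ranks 1 to 1000, 60.6% (57.5 to 63.6%) had any EREB150 summit within 100 bp, against 51.5% over the next 4000 ranks, 42.3% over the 5000 after these and 11.7% (11.4 to 12.1%) beyond rank 90000. For EREB150 the corresponding shares were 55.6% (52.5 to 58.7%), 47.6% and 45.8%, ending at 22.3% beyond rank 60000. Within the common sites, however, the order of strength was only weakly shared. The Spearman correlation of both ranks across sites was 0.21 at the top 1000 (95 sites), 0.18 at the top 5000 (704 sites), 0.17 at the top 10000 and 0.20 over all peaks, where each point shares its DNA between the 2 libraries. The strongest common sites of one factor were thus spread over the ranks of the other.

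**Figure D1:**
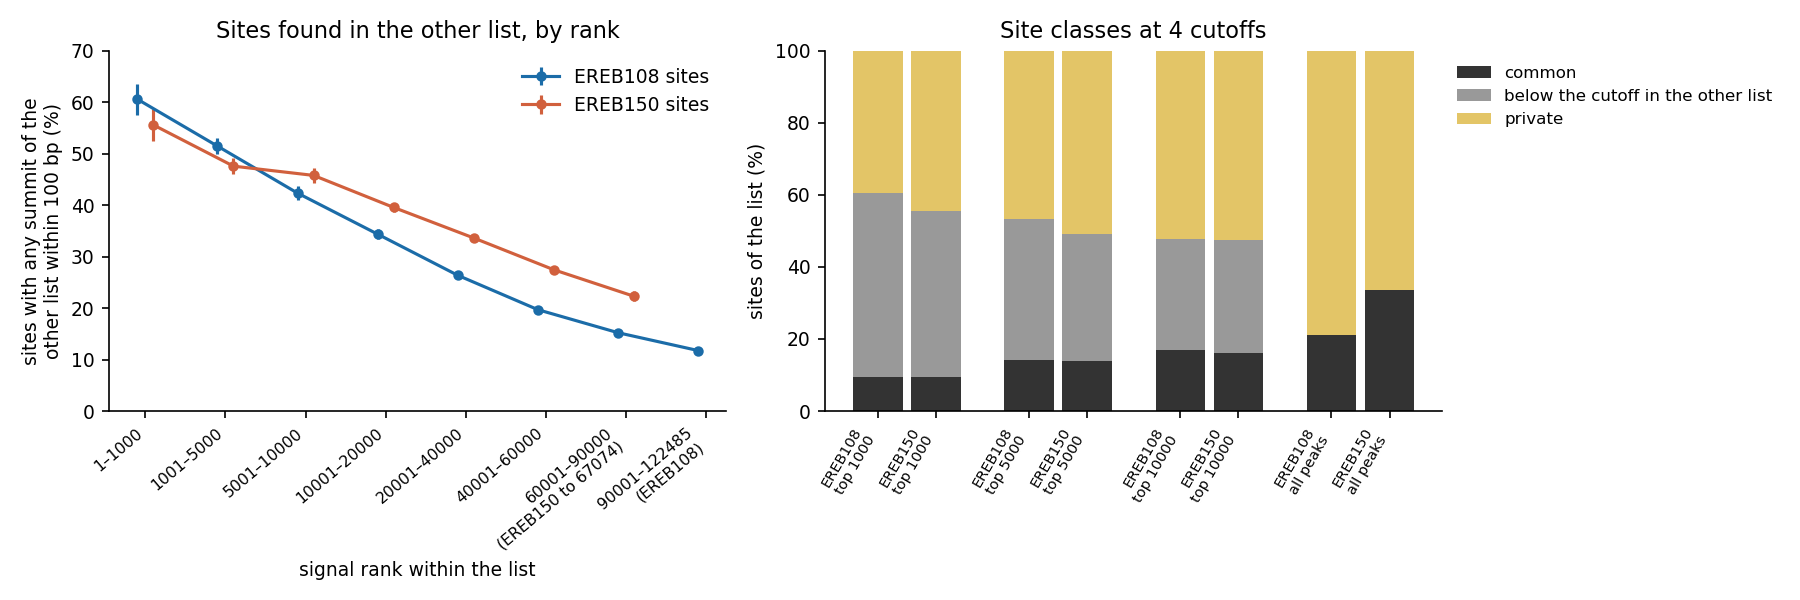
Left, the percentage of sites with any summit of the other list within 100 bp (y axis) by signal rank within the list (x axis), with 95% Wilson intervals. EREB108 went from 60.6% at the strongest ranks to 11.7% at the weakest, and EREB150 from 55.6% to 22.3%. Right, stacked bars give the percentage of sites that were common, below the cutoff in the other list, or private at 4 cutoffs, and the common part grew from 9.50% at the top 1000 to 21.1% and 33.5% over all peaks.

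Where the sites were common, the summits usually did not fall on the same base. The median distance between the summits was 24 bp at the top 1000 (quartiles 5 and 59.5), 31.5 bp at the top 5000 (6 and 60), 32 bp at the top 10000 (5 and 61) and 34 bp over all peaks (5 and 64). A summit distance within 10 bp was seen at 37.9%, 30.5%, 30.6% and 32.6% of the common sites at these cutoffs, and a distance within 50 bp at 65.3%, 62.9%, 63.9% and 63.6%. None of the 704 common sites of the top 5000 had a distance of 0 bp. The offsets thus held a close group and a wide remainder at every cutoff.

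The close group was narrow. The single most frequent distance was 2 bp, with 95 of the 704 common sites of the top 5000 (13.5%) and 3910 of the 25804 common sites over all peaks (15.2%). The next were 5 bp and 1 bp at the top 5000 (33 and 26 sites), and 78 bp followed with 20 sites. Over all peaks, 1413 sites lay at 1 bp, 1245 at 5 bp, 498 at 94 bp and 497 at 32 bp. In bins of 5 bp at the top 5000, the distance of 0 to 4 bp held 20.2% of the sites, that of 10 to 14 bp 3.55%, that of 25 to 29 bp 6.96%, that of 55 to 59 bp 7.53% and that of 75 to 79 bp 5.97%. The counts fell unevenly with distance, inside and beyond the window. Of the EREB150 summits of the top 5000, 208 lay 0 to 9 bp from the nearest EREB108 summit and 35 lay at 90 to 99 bp. Beyond the window, 14 lay at 100 to 109 bp, 44 at 120 to 129 bp and 8 at 190 to 199 bp. The distances have no sign here, since the strand of the bound element is not in the lists.

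**Figure D2:**
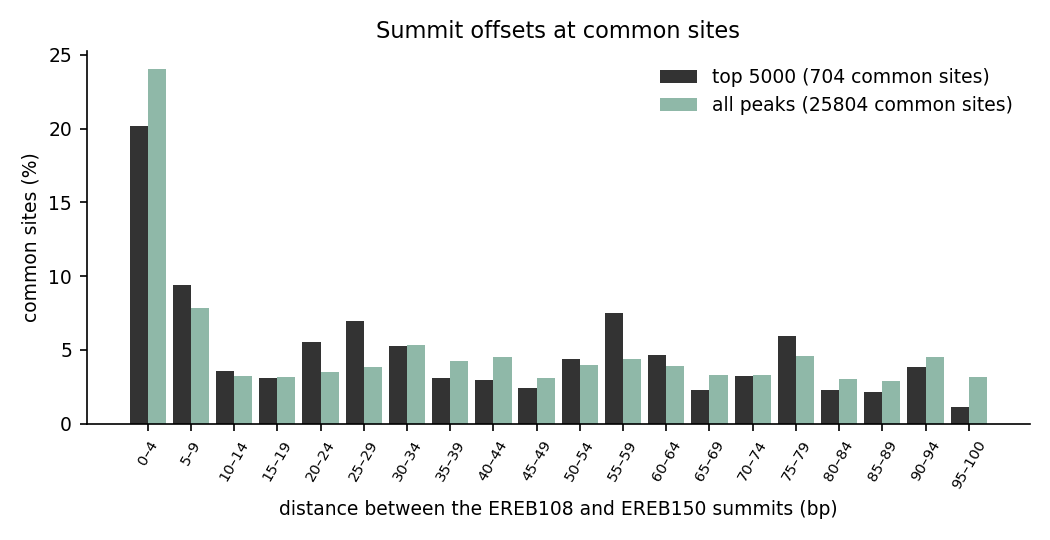
Percentage of common sites (y axis) by the distance in bp between the EREB108 and EREB150 summits (x axis), in bins of 5 bp, for the top 5000 peaks (dark) and all peaks (light). The bin of 0 to 4 bp holds 20.2% and 24.1% of the sites, and lower rises stand at 25 to 29, 55 to 59 and 75 to 79 bp at the top 5000.

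The offsets were wide for EREB lists. In the 99 pairs of EREB lists with at least 50 common sites at the top 5000, the median offset ranged from 6 to 61 bp, with a median of 23 bp, and the pair EREB108 and EREB150 had a larger one than 75 of them and a smaller one than 22. The pairs of EREB108 had medians of 15 to 31.5 bp (12 pairs, middle value 22 bp), closest with EREB196 at 15 bp and EREB54 and EREB147 at 18 bp each. The pairs of EREB150 had medians of 23 to 57 bp (14 pairs, middle value 33.75 bp), with 23 bp for EREB200 and 57 bp for EREB118. The pair's own offset of 31.5 bp sat at the upper end of the EREB108 range and inside the EREB150 range.

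The second comparison asked which other EREB factors bind at each class of site. It was made on the top 5000 peaks of each factor against all peaks of the other lists, and the class was set by EREB108 and EREB150 alone. The common sites were bound by many of the other EREB factors. Of the 704 common sites of EREB108, 81.96% (78.9 to 84.6%) held a summit of EREB209, 80.7% one of EREB54, 73.3% one of EREB196, 71.9% one of EREB147 and 71.7% one of EREB111. EREB97 followed with 69.03%, EREB205 with 68.2%, EREB200 with 47.7% and EREB2 with 40.5%. The remainder were lower, at 23.01% for EREB211, 22.2% for EREB102, 19.7% for EREB18, 3.69% for EREB79, 2.41% for EREB118 and 0.426% for EREB65.

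The private sites of EREB108 held much the same set. EREB209 lay at 86.7% (85.3 to 88.0%) of these 2335 sites, EREB54 at 86.4%, EREB196 at 86.1%, EREB147 at 83.3%, EREB111 at 72.6%, EREB205 at 70.9% and EREB97 at 66.7%. Among the lists less frequent here than at common sites, the gaps were widest for EREB102 at 3.98%, EREB2 at 23.6% and EREB200 at 40.5%. EREB79 went the other way, with 22.5% of the private against 3.69% of the common sites. EREB18 (20.6%), EREB211 (19.2%), EREB65 (0.557%) and EREB118 (0.257%) completed the set.

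The private sites of EREB150 held a different one. EREB209 lay at 9.52% (8.44 to 10.7%) of these 2541 sites, where it lay at 80.6% of the 691 common sites of EREB150. EREB54 lay at 12.2% against 78.6%, EREB196 at 12.7% against 72.9%, EREB147 at 10.9% against 70.9%, EREB111 at 7.95% against 68.5% and EREB205 at 7.87% against 65.4%. The gap was narrower for EREB97, with 16.5% against 67.2%, and for EREB200, with 17.3% against 47.3%. EREB211 (2.56% against 22.7%), EREB18 (1.02% against 18.8%) and EREB79 (0.945% against 3.33%) were rare at the private sites. In contrast, 4 lists were as frequent or more frequent there: EREB2 at 42.2% against 40.5%, EREB118 at 33.2% against 3.47%, EREB102 at 31.4% against 20.98% and EREB65 at 10.9% against 0.289%.

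**Figure D3:**
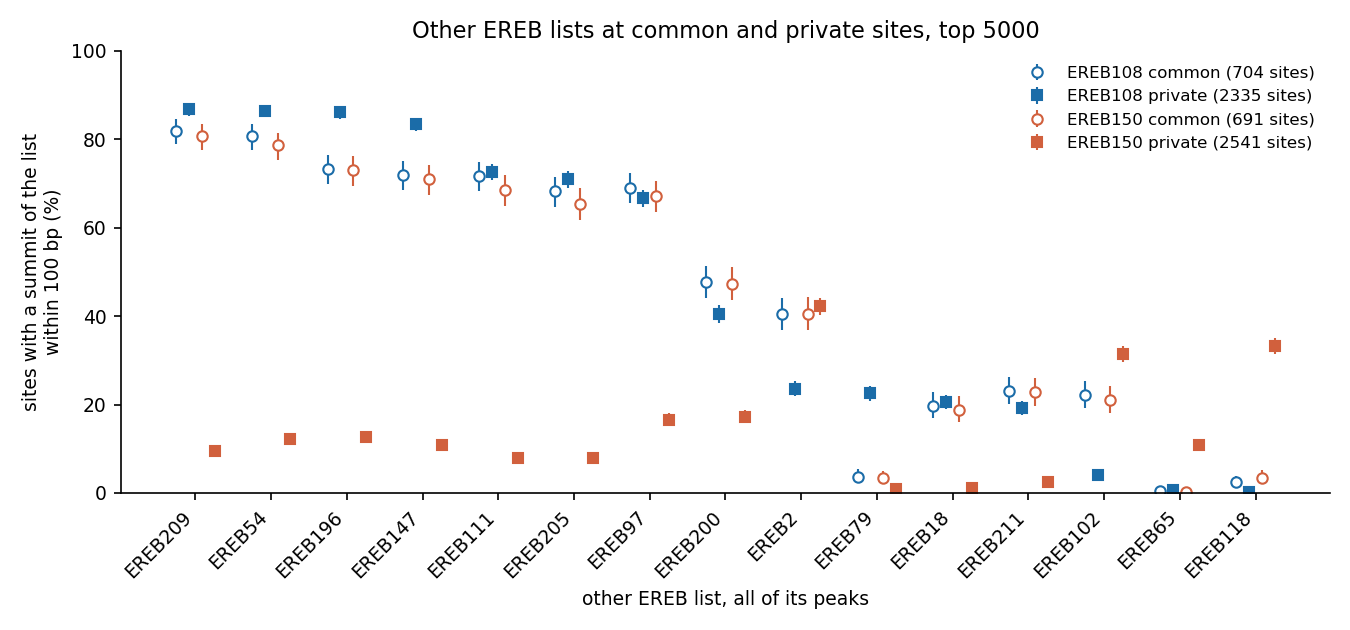
Percentage of sites with a summit of the list within 100 bp (y axis) for each of the 15 other EREB lists (x axis), at common sites (open circles) and private sites (filled squares) of EREB108 (blue) and EREB150 (orange), top 5000, with 95% Wilson intervals. The filled orange squares lie at 17.3% or lower for every list except EREB2, EREB102 and EREB118, whereas the other 3 symbols lie together for most lists.

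These differences were tested across the other EREB lists with a two-sided exact sign-flip permutation test, adjusted over 4 tests by the Benjamini-Hochberg method. The lists are different TFs that share sites with each other, not replicates. At the cutoff of the classes, sharing between them ranged from 0% (EREB54 and EREB65) to 57.4% (EREB54 and EREB147). The test flips the sign of each list separately, as if the lists were independent. The p-values of all 4 tests can therefore overstate the evidence, and the size of this effect was not tested. The mean percentage bound was 45.1 ± 30.7 (SD, n = 15 lists) at the common sites of EREB108 and 45.6 ± 34.3 at its private sites. That difference of -0.50 points did not pass the test (6 lists higher at common and 9 at private sites, exact adjusted p = 0.85). At the sites of EREB150, the mean was 44.1 ± 29.9 at common and 14.5 ± 12.2 at private sites, a difference of 29.6 ± 33.6 points (11 of 15 lists higher at common sites, exact adjusted p = 0.022). The private sites of EREB108 exceeded those of EREB150 by 31.1 ± 39.8 points (11 of 15 lists, exact adjusted p = 0.022), with EREB2, EREB65, EREB102 and EREB118 in the opposite direction. By definition the private sites of EREB150 lack every EREB108 peak, and its common sites hold one. The test at EREB150 sites and that between the private sites therefore partly restate how close each list lies to EREB108. List length also differs (122485 and 67074 peaks), and its part was not tested.

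The calls depended on how many peaks the other lists brought in. With the top 10000 peaks of each of the other lists in place of all, the difference at EREB150 sites was 14.7 points and that between the private sites 11.95 points, and neither passed the test (exact adjusted p = 0.052 and 0.079, ranges over the alternatives 0.0015 to 0.29 and 0.0032 to 0.29). The first difference changed sign under several alternatives. It was 3.66 points with the top 10000 peaks of the other lists (exact adjusted p = 0.052). In the lists whose run identifiers begin with 20 it was 0.50 points (exact adjusted p = 0.86). Within a window of 20 bp, common sites were bound more often than EREB108-private sites by 7.29 points (exact adjusted p = 0.0015, range over the alternatives 0.0015 to 0.86), and over all peaks they were so by 5.38 points (exact adjusted p = 0.0034). In the lists whose run identifiers begin with 20 (10 lists), the difference at EREB150 sites was 20.8 points. That between the private sites was 21.1 points, and neither passed the test (exact adjusted p = 0.29 for both). In the lists whose run identifiers begin with 19 (4 lists), they were 54.7 and 58.98 points, where the smallest possible exact p is 0.125.

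With the other lists cut to equal lengths, the shares were lower and the order of the lists at the private sites was as follows. At the private sites of EREB150, the top 10000 peaks of EREB2 lay at 30.4% (28.7 to 32.2%), those of EREB118 at 29.9%, those of EREB102 at 26.9% and those of EREB65 at 10.8%. The next were EREB200 at 7.12%, EREB97 at 2.17% and EREB211 at 1.81%, while EREB209 was at 0.708%, EREB147 at 0.826% and EREB196 at 0.590%. EREB79 was at 0 of 2541 sites, which allows a share of up to 0.151%. At the private sites of EREB108, the top 10000 peaks of EREB147 lay at 41.5%, those of EREB209 at 39.9%, those of EREB54 at 38.8%, those of EREB196 at 38.1% and those of EREB200 at 28.9%. There EREB2 was at 6.38%, EREB102 at 1.20% and EREB118 at 0 of 2335 sites, which allows up to 0.164%.

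At the other cutoffs, EREB209 and EREB118 differed between the classes of EREB150 in the same directions, whereas EREB2 turned. At the top 1000, EREB209 lay at 84.2% of the common sites of EREB150 and at 9.91% of its private sites, while EREB118 lay at 4.21% and 42.1%. At the top 10000, EREB209 lay at 78.96% and 8.87% and EREB118 at 2.47% and 27.8%. EREB2 lay at 37.9% of common and 47.97% of private sites at the top 1000, but at 39.1% and 36.2% at the top 10000. Over all peaks, EREB209 lay at 59.4% and 10.5%, EREB118 at 3.05% and 12.4%, and EREB2 at 26.8% and 22.0%. For EREB108 the share of EREB209 was nearly flat between common and private sites, at 84.2% and 86.3% at the top 1000, 81.3% and 86.1% at the top 10000, and 63.3% and 61.96% over all peaks.

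The number of other EREB lists per site set the classes apart in the same way. Common sites of EREB108 held a median of 7 of the 15 lists (quartiles 4 and 10), its sites below the cutoff in EREB150 held 8 (6 and 10) and its private sites 7 (6 and 9). Common sites of EREB150 held 7 (4 and 9), its sites below the cutoff 3 (1 and 6) and its private sites 2 (0 and 4). No other EREB list was present at 34.6% of the private sites of EREB150, at 21.5% of those below the cutoff and at 7.53% of its common sites, against 2.48%, 3.88% and 7.53% for EREB108. At 615 private sites of EREB150 (24.2%, 22.6 to 25.9%) none of the other 110 lists had a summit, and in EREB108 this held for 46 sites (1.97%, 1.48 to 2.62%).

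**Figure D4:**
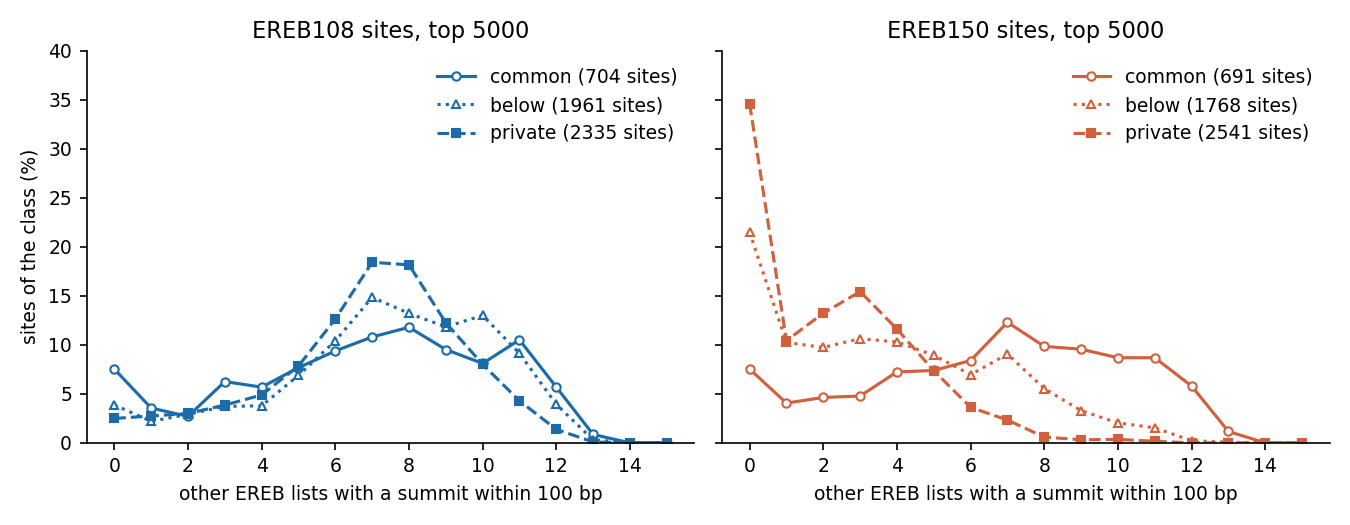
Percentage of the sites of a class (y axis) by the number of other EREB lists with a summit within 100 bp (x axis), for EREB108 (left) and EREB150 (right), top 5000. The 3 classes of EREB108 all centre on 7 or 8 lists, whereas 34.6% of the EREB150-private sites have none and their median is 2.

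The third comparison set the lists without the EREB name beside these values. At the common sites of EREB108 their median share was 0.142%, and at its private sites it was 0%. The highest were MYB83 with 52.4% of the common and 57.1% of the private sites, DBF1 with 48.6% and 50.7%, and WRKY122 with 17.3% and 10.2%. DBF1 is itself an AP2/ERF protein that binds the dehydration-responsive element. The run identifiers of MYB83 and WRKY122 begin with the same digits as that of EREB108 (19255). The median over the 10 lists with these digits was 0.385% at the private sites of EREB108, against 0% for the other 85, and the part of the shared identifier in the MYB83 value was not tested. In the top 5000 peaks alone, MYB83 and EREB108 shared 1.63% and DBF1 and EREB108 7.48%.

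At the private sites of EREB150 the lists without the EREB name were far more frequent. Their median share was 4.801% there, against 0.145% at its common sites, and the highest were BZIP121 at 32.9% (31.1 to 34.8%), BHLH156 at 30.6% and WRKY47 at 30.5%. Over the 5 lists whose run identifiers begin as that of EREB150 does (20255), the median at its private sites was 15.15%. Over the other 90, which include BZIP121, BHLH156 and WRKY47, it was 4.17%. The part of the shared identifier was not tested. At least 10 lists without the EREB name had a summit at 834 of the 2541 private sites (32.8%, 31.02 to 34.7%), at 160 of the sites below the cutoff (9.05%) and at none of the 691 common sites. In EREB108 no site of the top 5000 was so crowded, which allows a share of up to 0.0768%. The share over the top 5000 was 19.9% for EREB150, and the other EREB lists ranged from 0.400% for EREB209 to 39.1% for EREB2, 45.5% for EREB102 and 62.04% for EREB118.

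The EREB lists most frequent at the private sites of EREB150 lay mainly at the crowded ones. EREB2 lay at 82.1% of the private sites of EREB150 with at least 10 lists without the EREB name, at 38.3% of the 894 with 1 to 9 and at 5.54% of the 813 with none. EREB118 lay at 77.5%, 22.0% and 0.123% of these sites, EREB102 at 65.5%, 26.9% and 1.48%, and EREB65 at 31.9%, 1.34% and 0%. EREB200 followed the same order, at 34.8%, 15.4% and 1.35%. EREB209 and EREB54 did not, with EREB209 at 2.76%, 15.2% and 10.2% and EREB54 at 5.04%, 20.6% and 10.3%. The signal of EREB150 was similar in these 3 groups, with medians of 75, 72 and 69.5. Without the crowded sites, 691 of 4006 EREB150 sites (17.2%, 16.1 to 18.4%) were common.

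The last comparison asked whether the other EREB factors lay closer to EREB108 or to EREB150, by the sharing of the top 5000 peaks. The closest to EREB108 were EREB200 with 29.1%, EREB196 with 28.8% and EREB147 with 28.0%, and the least close was EREB118 with 0%. The closest to EREB150 were EREB2 with 17.1%, EREB102 with 14.8% and EREB118 with 14.0%, and the least close was EREB79 with 0.220%. The run identifiers of EREB2, EREB102 and EREB118 begin with the digits of EREB150 (20255). Those of EREB54 and EREB196 do too, and these lists shared 6.46% and 6.94% with EREB150. Of the 3 closest to EREB108, EREB200 and EREB147 carry its digits (19255) and EREB196 does not. The part of the shared identifiers was not tested. The mean sharing was 13.8 ± 10.99% with EREB108 and 6.86 ± 4.79% with EREB150 (SD, n = 15 lists). The mean difference of 6.94 ± 12.7 points did not pass the test, although 11 of 15 lists lay closer to EREB108 (exact adjusted p = 0.073). Leaving out EREB2, EREB102 or EREB118 brought it past the threshold (exact adjusted p = 0.041, 0.030 and 0.028). These lists had the lowest differences (-9.69, -13.1 and -14 points), so leaving one out raises the mean. With any of the other 12 lists left out, the mean difference did not pass the test (exact adjusted p up to 0.13). The difference passed with a window of 20 bp (0.015), with a range over the alternatives of 0.015 to 0.74. In the lists whose run identifiers begin with 20, the difference was 2.396 points over 10 lists (exact adjusted p = 0.74). In those beginning with 19 it was 18.4 points over 4 lists, where the smallest possible exact p is 0.125.

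The neighbourhood without the EREB name differed as well. Of the 95 lists without it, 2 shared at least 1% of the top 5000 with EREB108 and 29 did so with EREB150. The highest with EREB150 was SFB1 with 10.4%, and the highest with EREB108 was DBF1 with 7.48%. With 13.95%, EREB150 shared less with EREB108 than 7 of the other EREB lists did, down to EREB205 with 14.9% and EREB97 with 14.3%. EREB108 shared less with EREB150 than 3 of them did, just below EREB118.

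**Figure D5:**
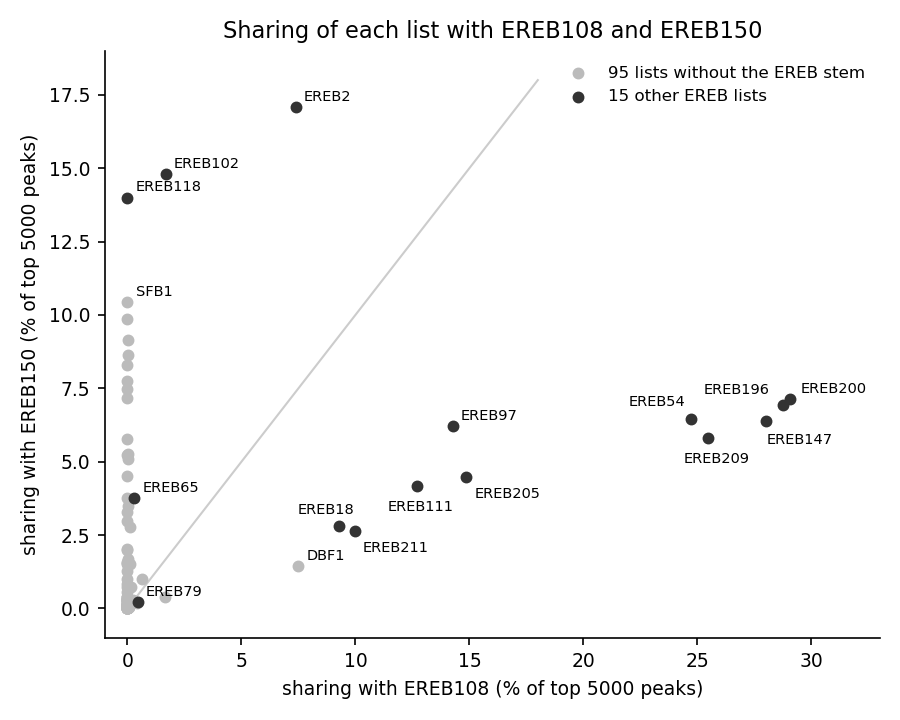
Sharing of the top 5000 peaks with EREB108 (x axis, %) and with EREB150 (y axis, %) for the 15 other EREB lists (dark) and the 95 lists without the EREB name (grey), where the line marks equal sharing. EREB200, EREB196 and EREB147 lie at 28.0 to 29.1% on the x axis, and EREB2, EREB102 and EREB118 at 14.0 to 17.1% on the y axis.

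The sites of the 2 factors also differed in how they were spaced within a list. Of the top 5000 sites, 88.2% in EREB108 and 29.7% in EREB150 had another summit of the same list within 1 kb. The other EREB lists ranged from 27.8% for EREB200 to 97.5% for EREB79. Counting only neighbours within the top 5000, the shares were 15.96% and 4.98%. That of EREB150 was below those of all the other EREB lists, of which EREB111 had 7.10% and EREB79 63.1%. The top 5000 are 4.08% of the EREB108 list and 7.45% of the EREB150 list, and the part of list length was not tested. Within each factor the classes were close to each other: 90.5% of common and 88.6% of private sites had a neighbour within 1 kb in the full EREB108 list, and 31.8% and 30.7% did in that of EREB150. Common sites were found on every chromosome, from 11.3% (8.54 to 14.8%) of EREB108 sites on chromosome 6 to 16.3% (13.5 to 19.6%) on chromosome 5, intervals that overlap.

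Single sites of the classes follow, given as intervals of the B73 v4 genome with the first base counted as 1. The common sites with the smallest sum of ranks were chr10:94939823-94940023 (EREB108 signal 919.7, rank 12; EREB150 signal 319.9, rank 4; summits 28 bp apart) and chr10:94970709-94970909 (761.8, rank 40, and 326.2, rank 3, with 6 bp between summits). The next was chr1:148186941-148187141 (793.7, rank 32, and 179.0, rank 35, with 90 bp). Each held 7 other EREB lists, and EREB54, EREB196, EREB205 and EREB209 were present at all of these.

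The strongest EREB108-private sites more than 1 kb from any EREB150 summit were chr5:59185-59385 (signal 979.9, rank 5), chr10:56096903-56097103 (832.0, rank 24) and chr4:26103939-26104139 (829.1, rank 27). They held 8, 8 and 12 other EREB lists. The EREB150-private sites chosen in the same way were chr4:176923566-176923766 (signal 219.9, rank 18), chr5:209939860-209940060 (153.2, rank 62) and chr5:57212626-57212826 (145.1, rank 81). None held another EREB list, and the lists without the EREB name numbered 1, 0 and 0. These sites are not typical of their class. The 444 EREB150-private sites of the top 1000 held a median of 3 other EREB lists and 7 lists without the name. Only 15.8% of those 444 sites held no other list at all. The gene annotation of this build was not used here, so the genes nearest to these sites are not given.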

How the data were processed

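ampDAP-seq peak lists of 17 TFs with the EREB name and 95 without it were used, 1 per TF. Per the study's methods, the authors trimmed reads with Trimmomatic (v0.39 per the labels), aligned them to B73 v4 with Bowtie2 (v2.4.1), removed duplicates with Picard and called peaks with GEM against an empty-HaloTag library. The deposited signal column holds the caller's signal per peak, beside p-values and q-values that the authors deposited as −log10, capped at 999. Intervals of 201 bp are centred on a summit. Peaks were ranked by signal within a list, with ties broken by position. Sites were matched by summits within 100 bp, and classes and percentages were computed in Python 3.11.15 (numpy 2.4.6, scipy 1.17.1). The members, lists and tests were chosen with earlier results of these data known. Named lists were all other EREB lists, the 3 closest and the least close to each factor, the highest without the EREB name per class, and DBF1. Named sites were the 3 common sites with the smallest rank sum and the 3 strongest private sites over 1 kb from the other list. The sign-flip tests flip all 32768 sign patterns, with a smallest p of 6.1e-05, and matching and test were tested on simulated data. Read depth is not in the lists, so its effect on list length is unknown. Alternatives changed the window, the ranking, the cutoffs, the lists and the leading digits of the run identifiers.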

Additional observations from a re-analysis of the deposited data

How the results depend on the processing

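The sharing of EREB108 and EREB150, in the order top 1000, 5000, 10000 and all peaks, was 4.40, 5.22, 6.50 and 11.6% within 20 bp and 6.20, 8.80, 10.8 and 18.6% within 50 bp. Within 200 bp it was 17.4, 21.02 and 37.2% from the top 5000 on. It was 17.4% at the top 10000 ranked by −log10 q, 23.6% over all peaks with a −log10 q of at least 10 (too few EREB150 peaks for a top 10000) and 15.7% in the top 10% of each list. The other alternatives moved it by less than the counting interval. The common minus EREB108-private difference of -0.50 points became 7.29 within 20 bp, 5.38 over all peaks and 3.66 with the top 10000 peaks of the other lists. It was 0.50 in the lists whose run identifiers begin with 20. Without each list in turn it lay between -1.84 and 0.81 (above 0 without EREB79, EREB147 or EREB196). The common minus EREB150-private difference no longer passed the test with the top 10000 peaks of the other lists (14.7). Nor did it pass in the lists whose run identifiers begin with 19 (54.7) or with 20 (20.8). The same held for the difference between the private sites (11.95, 59.0 and 21.1), and without each list in turn these 2 stayed at 26.7 to 33.9 and 27.8 to 35.7 points, past the threshold. Sharing with EREB108 minus EREB150 passed it within 20 bp (4.39), at the top 10000 (9.45) and in the top 5% of each list (8.90), and ranged from 5.87 to 8.44 without each list. An alternative chosen after the data were seen left out sites with at least 10 lists without the EREB name, which removed private EREB150 sites and no common ones. It gave 33.97 and 35.5 points for the differences at EREB150 sites and between the private sites. EREB2, EREB65, EREB102 and EREB118, the lists with the opposite direction, lay mainly at the removed sites, so these larger values are no separate support. The causes of the changes under the alternatives were not tested. Run identifiers beginning with 19 were held by 4 lists, so that no p below 0.125 was possible there. The 4 tests pair 2 values of the same other EREB list. Samples could not be paired by replicate number, because these numbers only count TFs of one name. With 1 library per TF and unknown depth, a site that the other factor does not bind and one that its library missed cannot be told apart.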

Other observations

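The strongest peak of each list, singled out after its values were seen, lay in both lists but at very different ranks. The strongest EREB108 peak was chr5:53701345-53701545 with a signal of 2265. EREB150 had a summit 86 bp away with a signal of 112.4 at rank 271, and 11 other EREB lists and 4 lists without the EREB name had one within 100 bp. The strongest EREB150 peak was chr7:119981112-119981312 with a signal of 448.8. EREB108 had a summit 73 bp away with a signal of 91.0 at rank 38085, and 7 other EREB lists and 14 lists without the name had one there.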
